A study of Mus musculus with 216 samples.

Results

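The 10 genes described here were chosen because their RNA level differed between 6 and 18 months of age in the same direction in every tissue sampled and moved little afterwards: Nnt, Tmem267, Ide, Fgfbp3, Wdfy1, Lrmda, Efcab7, Dynlt1b, Tmem181b-ps and Dynlt1-ps1. They are 10 of the 55376 gene names in the count table, each present as 1 row. Bulk RNA sequencing covered heart, skeletal muscle, kidney, lung, adrenal gland and hypothalamus of male mice that all carry the strain label C57B6/J-NIA. Young mice were 6 months old, aged mice 18 months and old mice 27 months. No group received a treatment or carries an engineered allele in the labels. Each library pools 2 samples, and each tissue and age has 12 libraries, 1 for each circadian time from 18 to 62 h in steps of 4 h. Every age is 1 set of mice, so age and any other difference between the sets, including genotype, cannot be told apart in this design. The labels do not say whether tissues of 1 age and time came from the same mice, and p-values measure the spread between libraries.

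The members have unrelated roles. Nnt encodes the proton-pumping nicotinamide nucleotide transhydrogenase of the inner mitochondrial membrane, which makes NADPH in the matrix. Ide encodes insulin-degrading enzyme, a zinc metallopeptidase that cleaves insulin and amyloid peptides, and Fgfbp3 encodes a secreted carrier of fibroblast growth factors. Wdfy1 encodes an endosomal protein with a FYVE domain and WD40 repeats that has been linked to signalling by Toll-like receptors. Lrmda is needed for melanocyte differentiation. Efcab7 anchors the EVC and EVC2 proteins at the base of the primary cilium in the Hedgehog pathway, and Dynlt1b encodes a Tctex-type light chain of the dynein motor. Tmem267 encodes a membrane protein, and Tmem181b-ps and Dynlt1-ps1 are annotated as pseudogenes. As background, Nnt is known to differ in sequence between substrains of C57BL/6 mice, C57BL/6J carrying a deletion within the gene, and a stretch with Ide and Fgfbp3 has been described at varying copy number among C57BL/6J mice. The genotype of these mice was not analysed here.

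In GRCm38 (GENCODE M21), 3 pairs of members lie near each other and the others stand alone. Nnt (chr13:119335448-119408997, minus strand, with a second overlapping model of the same name) and Tmem267 (chr13:119488039-119611059, plus strand) share a stretch of chromosome 13. Fgfbp3 (chr19:36917550-36919615, minus) and Ide (chr19:37268743-37337852, minus) share a stretch of chromosome 19. Dynlt1b (chr17:6430112-6436296, plus) and Tmem181b-ps (chr17:6438524-6467022, minus, a transcribed unprocessed pseudogene) are neighbours on chromosome 17. Wdfy1 lies at chr1:79702262-79776143 (minus), Lrmda at chr14:22019712-23056085 (plus) and Efcab7 at chr4:99829198-99912788 (plus). Dynlt1-ps1 is a processed pseudogene at chr6:135349408-135349749 (minus). Values are counts over whole genes, so no exon or isoform is singled out.

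Dynlt1b and Dynlt1-ps1 belong to a family whose transcripts are almost the same sequence, which matters for how reads of 1 copy are told from reads of another. The first 60 of 342 compared coding bases are shown, from GENCODE M21 transcripts, with capitals at the base that differs from Dynlt1b.
Dynlt1b: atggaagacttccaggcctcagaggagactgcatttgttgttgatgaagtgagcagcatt
Dynlt1a: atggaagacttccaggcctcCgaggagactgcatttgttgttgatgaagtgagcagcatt
Dynlt1c: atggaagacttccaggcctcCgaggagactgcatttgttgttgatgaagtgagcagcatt
Dynlt1f: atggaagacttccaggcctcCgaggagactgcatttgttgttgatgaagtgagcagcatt
Dynlt1-ps1: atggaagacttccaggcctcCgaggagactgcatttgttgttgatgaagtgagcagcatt
Counted from 1 at the first coding base, A21C was the 1 substitution that separated Dynlt1a, Dynlt1c, Dynlt1f and Dynlt1-ps1 from Dynlt1b over the 342 bases (99.7% identity). Over those bases Dynlt1-ps1 equals 3 of the expressed copies, and the 321 bases after the substitution are identical in all 5 transcripts. Counts of single family members are therefore uncertain, because they depend on how the authors' counting treated reads that fit several genes. The same caution holds for Tmem181b-ps, whose relatives are Tmem181a and Tmem181c-ps, and for Nnt with its overlapping gene models. The use of strand in counting is not given in the sources used here.

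Library totals ran from 1.83 M to 34.5 M counts (M for mega, median 18.4 M), and the old libraries were shallow in 4 tissues, with medians of 11.8 M in kidney, 9.24 M in lung, 8.62 M in muscle and 6.38 M in hypothalamus. Marker genes of each tissue had their highest summed level in that tissue. Libraries that stood apart were found in adrenal and hypothalamus. The young adrenal library at 54 h had low adrenal cortex genes (Cyp11b1 123 CPM against 1020 to 2702 in the other 35) and high adipose genes (Adipoq 1414 CPM against at most 841). In the aged adrenal libraries from 18 to 38 h, the clock gene Arntl peaked at 30 h, whereas it peaked at 22 h in young and old adrenals of the same span. The adrenal change of Nnt is given with and without these 7 libraries. Other adrenal changes of single genes are given with all libraries. Without the 7, the pathway lists had 1 adrenal call between 18 and 6 months in place of 3. In bulk tissue, fewer cells of a type and less RNA per cell cannot be told apart.

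Levels are given in CPM, counts per mega counts of the library, and changes as log2 differences between age means fitted around a 24 h cosine, with their standard error (SE) in edgeR. The members were picked both on the difference between 6 and 18 months and on the small change after it. For either contrast, passing the threshold is therefore given as a description of the members and supports nothing. Across 10 members and 6 tissues, all 60 differences between 18 and 6 months passed an adjusted p of 0.05, against 9.17% of all gene and tissue combinations. The median size of the 60 first changes was 1.09 on the log2 scale, and that of the changes from 18 to 27 months was 0.188. The later change was under 0.5 times the first in 53 of 60 cases. Between 18 and 27 months, 25 of the 60 passed the threshold, beside 34% of all combinations. Nothing is read from either share, since the rule used both contrasts. The CPM ranges of young and aged libraries did not overlap in 38 of 60 cases (0.354% of all combinations), those of young and old libraries in 36 (3.64%), and those of aged and old libraries in 1 (1.92%). The ranges reflect the contrasts of the rule. Here and below, ranges that lie apart are therefore a description of the members and support nothing.

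**Figure D1:**
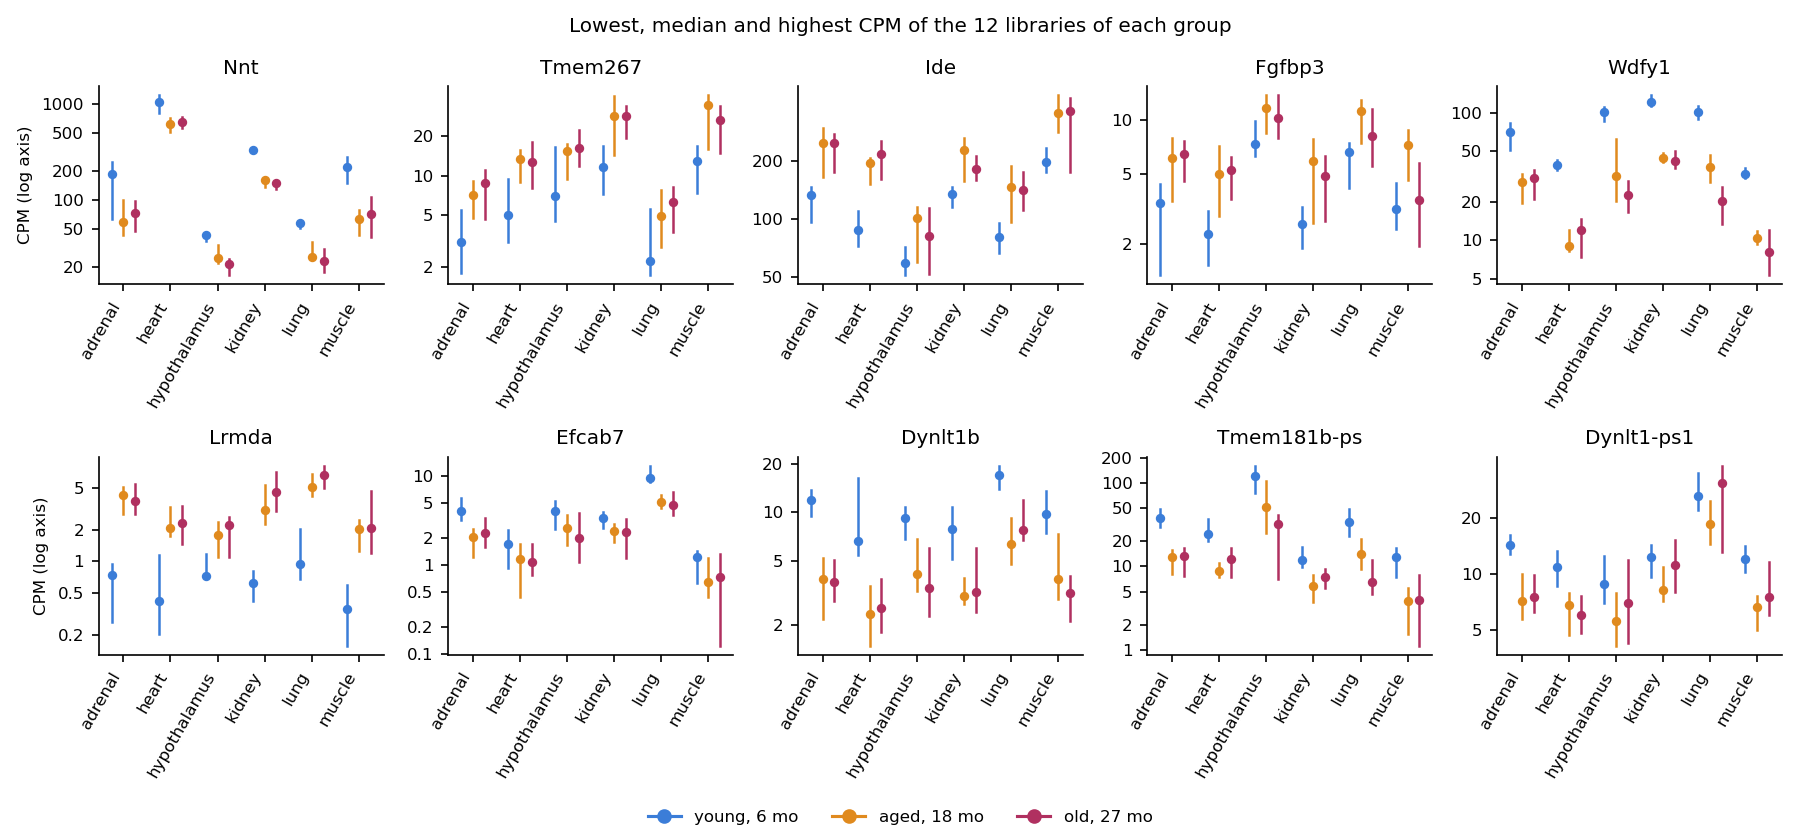
CPM of the 10 members by tissue and age, on log axes with a scale of its own for each gene. Points are medians and bars run from the lowest to the highest of 12 libraries. The aged and old bars overlap in 59 of 60 cases, while the young bar lies clear of the aged bar in 38.

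Nnt RNA was lower at 18 than at 6 months in all 6 tissues, by 0.72 to 1.80 on the log2 scale, which is a young level 1.64 to 3.57 times the aged one in mean CPM. Kidney was the most even tissue. Its young libraries held 317 to 352 CPM (median 332), its aged libraries 136 to 167 (median 162) and its old libraries 131 to 158 (median 148). Every young kidney library thus lay far above every aged and old one, and the fitted change was -1.12 ± 0.04 (SE). In heart, where Nnt was most abundant, young libraries held 804 to 1244 CPM (median 1059), aged libraries 516 to 711 (median 620) and old libraries 563 to 733 (median 647). The change there was -0.79 ± 0.05, followed by 0.01 ± 0.05 from 18 to 27 months. Young and aged hearts did not overlap, and aged and old hearts covered nearly the same range.

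Skeletal muscle had the greatest Nnt difference of the 6 tissues, -1.80 ± 0.12. Young muscle ran from 151 to 280 CPM (median 220), aged muscle from 43.5 to 77.7 (median 63.3) and old muscle from 40.8 to 107 (median 71.4). In lung the young libraries held 51.3 to 61.6 CPM (median 57.7), the aged 23.8 to 36.6 (median 25.5) and the old 17.8 to 30.4 (median 23.1). Neither tissue had an aged or old library within the young range. Hypothalamus had the lowest Nnt level and the smallest difference, with 37.0 to 45.4 CPM in young (median 43.4), 22 to 33.6 in aged (median 24.7) and 16.3 to 24.1 in old libraries (median 21.7). Even there, the lowest young library lay above the highest aged one.

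Adrenal gland was the 1 tissue in which young and aged Nnt values overlapped. Young adrenals ran from 62.6 to 247 CPM (median 185), aged adrenals from 43.2 to 99.9 (median 59.3) and old adrenals from 47.3 to 97.5 (median 72.8). The overlap came from the young library at 54 h with high adipose genes, whose Nnt was 62.6 CPM while the other 11 young libraries held 139 to 247. The fitted difference was -1.51 ± 0.14 with all libraries and -1.51 without the 7 libraries that stood apart. In that young library Ide (96.3 CPM, with 166 to 298 in aged adrenals) and Wdfy1 (51.1 CPM, with 19.5 to 33.2 in aged adrenals) lay outside the aged range.

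**Figure D2:**
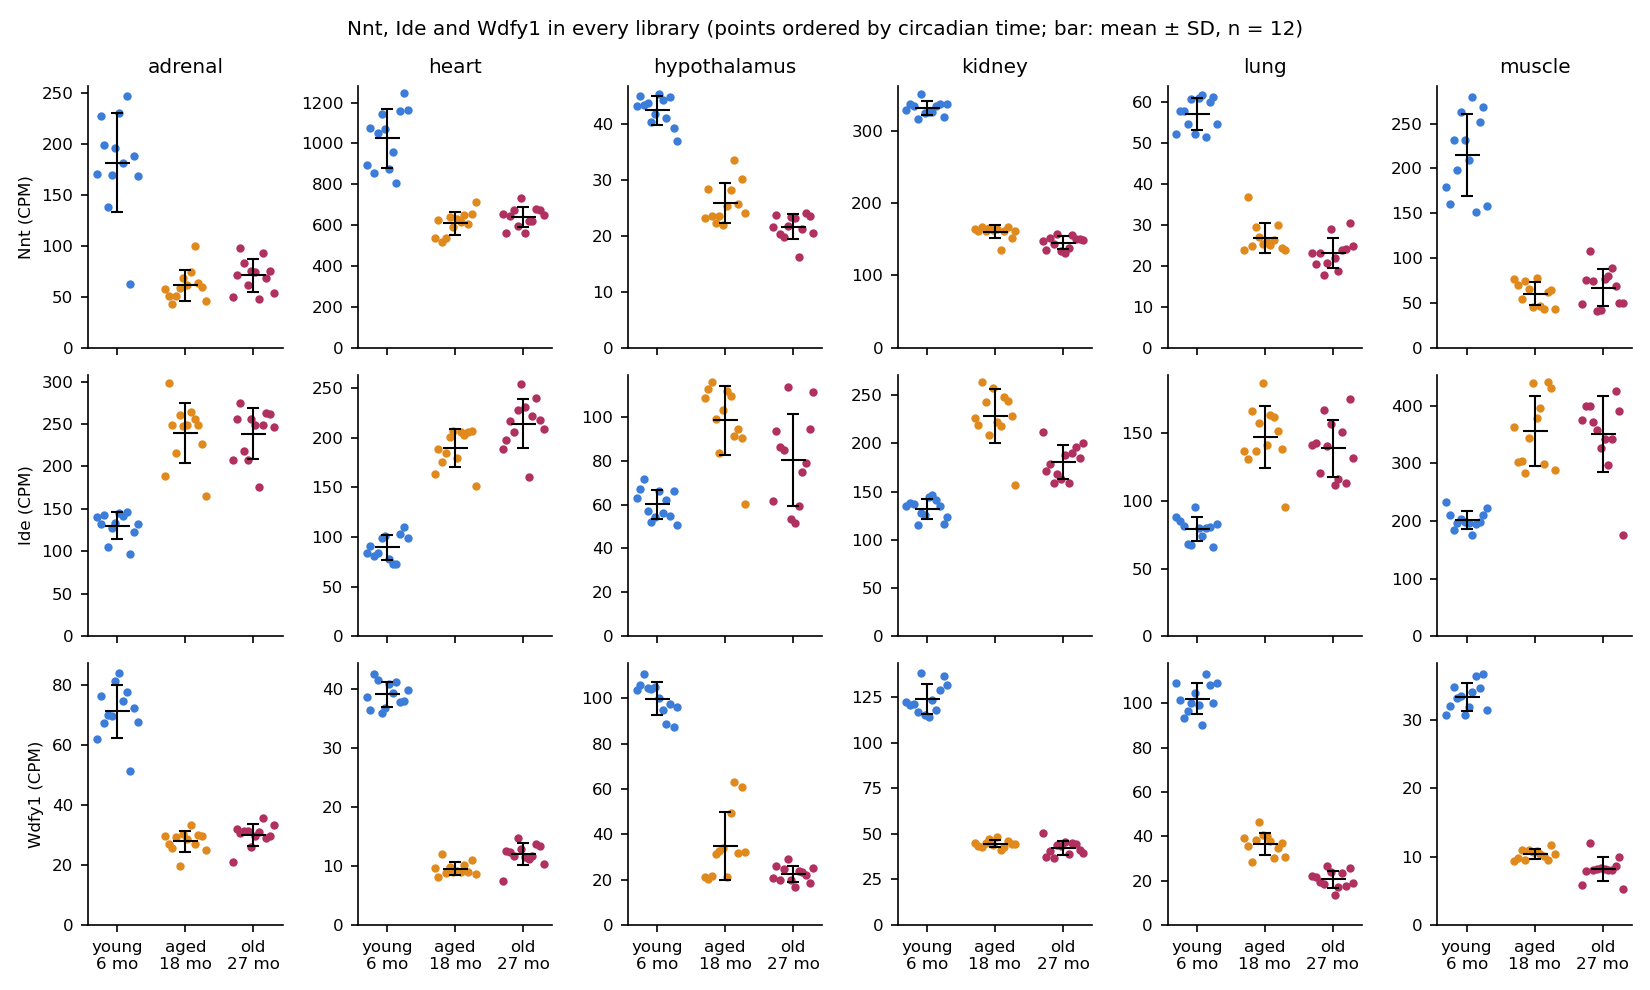
CPM of Nnt, Ide and Wdfy1 in every library, by tissue (columns) and age, with the points of a group in order of circadian time and bars for the mean ± SD (n = 12). The young range lies clear of the aged range in 5 of 6 tissues for Nnt and Ide and in 6 for Wdfy1. It lies clear of the old range in 5 tissues for Nnt, 4 for Ide and 6 for Wdfy1. Of all gene and tissue combinations, 0.354% were clear between young and aged and 3.64% between young and old.

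After 18 months Nnt moved by -0.22 to 0.20 on the log2 scale in the 6 tissues. The later change was -0.22 ± 0.04 in kidney and -0.22 ± 0.06 in hypothalamus, in the direction of the first. In adrenal and muscle it was 0.20 ± 0.14 and 0.16 ± 0.12. From 6 to 27 months the total difference was -0.78 in heart to -1.65 in muscle.

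Tmem267, which lies beyond the 5' end of Nnt on the opposite strand, was higher at 18 than at 6 months by 0.92 (lung) to 1.33 (muscle) on the log2 scale, or 1.93 to 2.46 times in mean CPM. In muscle, young libraries held 7.35 to 16.7 CPM (median 12.8), aged libraries 16.0 to 41.0 (median 34.2) and old libraries 14.9 to 34.1 (median 26.2). In adrenal the corresponding values were 1.82 to 5.47 (median 3.11), 4.73 to 9.16 (median 7.15) and 4.65 to 11 CPM (median 8.79). The medians thus rose with the first step while single libraries overlapped, which was so for young and aged Tmem267 in all 6 tissues. The later change lay between -0.21 and 0.43, lung having the highest of the 6 values (0.43 ± 0.17).

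Ide, the insulin-degrading metallopeptidase, was higher at 18 months in every tissue, by 0.70 to 1.04 on the log2 scale, or 1.64 to 2.11 times in mean CPM. Heart changed most, from 72.5 to 110 CPM in young libraries (median 87.9) to 151 to 207 in aged (median 195) and 160 to 254 in old libraries (median 218). In adrenal, young libraries held 96.3 to 146 CPM (median 133), aged 166 to 298 (median 249) and old 175 to 275 (median 249). Muscle had 175 to 232 CPM in young (median 198), 282 to 440 in aged (median 353) and 175 to 426 in old libraries (median 364). In these 3 tissues the aged libraries all lay above the young, and the low end of the old muscle range was set by 1 library, at 62 h.

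Kidney and hypothalamus differed from the others in what followed. Kidney Ide went from 115 to 146 CPM in young (median 135) to 157 to 264 in aged (median 227) and then 159 to 212 in old libraries (median 182). Its first change was 0.71 ± 0.06 and its later change -0.41 ± 0.06, so 0.30 ± 0.06 remained at 27 months. Hypothalamic Ide was 50.9 to 71.6 CPM in young (median 59.4), 60.1 to 116 in aged (median 101) and 51.7 to 113 in old libraries (median 81.8), with a later change of -0.26 ± 0.10. The old hypothalamus thus spanned nearly the whole young range of Ide and was above young at 9 of 12 times. Hypothalamus was the 1 tissue where young and aged Ide overlapped, through the aged library at 62 h. Lung held 66.3 to 95.8 CPM in young (median 80.5), 96.0 to 187 in aged (median 147) and 112 to 175 in old libraries (median 141). Its later change was -0.01 ± 0.09.

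Fgfbp3, the growth factor carrier on the same stretch of chromosome 19, was higher at 18 months by 0.58 (hypothalamus) to 1.11 (muscle). In heart, young libraries held 1.53 to 3.08 CPM (median 2.28), aged 2.88 to 7.12 (median 4.95) and old 3.58 to 6.22 (median 5.23). In muscle the values were 2.43 to 4.45 (median 3.14), 4.61 to 8.80 (median 7.24) and 1.96 to 5.73 CPM (median 3.55). Muscle was the 1 tissue where young and aged Fgfbp3 did not overlap, and also the 1 where the later change, -0.84 ± 0.14, nearly cancelled the first, 1.11 ± 0.13. At 27 months muscle Fgfbp3 stood 0.27 ± 0.14 above young. Ide in the same muscles kept its level after 18 months, with a later change of 0.04 ± 0.09.

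Wdfy1, the endosomal FYVE protein gene, was lower at 18 months by 1.31 (adrenal) to 2.08 (heart), with no overlap of young and aged libraries in any of the 6 tissues. This describes a gene picked on that difference, and 0.354% of all gene and tissue combinations were apart. Heart held 35.9 to 42.5 CPM in young (median 39.0), 8.19 to 12 in aged (median 9.08) and 7.40 to 14.8 in old libraries (median 12). Kidney held 114 to 139 CPM in young (median 122), 41.3 to 48.5 in aged (median 44.6) and 36.8 to 50.6 in old libraries (median 42.3). Muscle held 30.8 to 36.7 CPM in young (median 33.4), 9.29 to 11.8 in aged (median 10.4) and 5.28 to 12 in old libraries (median 8.13). In these tissues the young mean was 4.10, 2.78 and 3.22 times the aged mean.

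Adrenal Wdfy1 went from 51.1 to 83.9 CPM (median 71.0) to 19.5 to 33.2 (median 28.8) and 21.0 to 35.5 (median 30.8). Lung Wdfy1 fell in both intervals, from 90.4 to 113 CPM in young (median 101) to 28.6 to 46.4 in aged (median 37.4) and 13.3 to 26.4 in old libraries (median 20.5). The lung's later change was -0.74 ± 0.08, and it was the 1 case among 60 in which aged and old ranges did not overlap. Hypothalamic Wdfy1 was 87.1 to 111 CPM in young (median 102), 20.2 to 63.0 in aged (median 32.1) and 16.8 to 29.3 in old libraries (median 22.7). Its aged range was wide because 2 libraries, at 50 and 58 h, held 63.0 and 60.8 CPM, and the library at 46 h held 49.4.

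The aged hypothalamus libraries at 50 and 58 h stood toward the young side for several other members, but not for all. They had the highest and the next highest aged values of Nnt (33.6 and 30.2 CPM), Dynlt1b (6.80 and 6.64 CPM) and Tmem181b-ps (106 and 101 CPM). They also had the lowest and the next lowest aged Tmem267, 9.36 and 11.6 CPM. Lrmda was 1.26 and 1.25 CPM in them, among the 3 lowest of 12, and Fgfbp3, at 10.2 and 9.79 CPM, was too. Efcab7 at 50 h was the highest aged value at 3.59 CPM, while at 58 h it was 2.84, near the aged median of 2.62. Ide was 91.4 and 90.1 CPM there, between the medians of young and aged. Dynlt1-ps1 was 6.04 and 5.40 CPM, on either side of its aged median of 5.58. Neither library reached the young median for any of the 10 members. Why these libraries differ was not tested.

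Lrmda, the melanocyte differentiation gene, was higher at 18 months by 1.07 (hypothalamus) to 2.58 (adrenal), or 2.10 to 5.87 times in mean CPM. Its median over tissues, 2.28, was the largest in size of the 10 members, while Wdfy1 had the larger change in heart (-2.08 against 2.05) and hypothalamus (-1.54 against 1.07). Young adrenals held 0.264 to 0.946 CPM (median 0.743), aged adrenals 2.81 to 5.12 (median 4.32) and old adrenals 2.80 to 5.47 (median 3.73). In kidney the values were 0.424 to 0.807 (median 0.627), 2.28 to 5.29 (median 3.11) and 3.03 to 7.06 CPM (median 4.57). Young counts were low, with 2 counts in the lowest heart library, so young levels are imprecise in single libraries. As a description of a gene picked on this difference, young and aged ranges were apart in 5 of 6 tissues, hypothalamus being the exception. Of all gene and tissue combinations, 0.354% were apart. The later change was 0.44 ± 0.12 in kidney and 0.49 ± 0.14 in lung, again upward.

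Efcab7, which tethers the EVC proteins in the cilium, was lower at 18 months by 0.61 (kidney) to 0.99 (lung). Lung held 8.62 to 13.1 CPM in young (median 9.50), 4.31 to 6.03 in aged (median 5.05) and 3.65 to 6.67 in old libraries (median 4.67). Adrenal held 3.20 to 5.64 (median 4.03), 1.22 to 2.51 (median 2.08) and 1.59 to 3.38 CPM (median 2.29). These were the 2 tissues in which young and aged libraries did not overlap. The 6 later changes ranged from -0.19 to 0.07. In kidney the first change was -0.61 ± 0.10 and -0.37 when libraries were thinned to equal depth, the 1 value of the members that moved by more than its spread under another processing.

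Dynlt1b, the dynein light chain gene, was lower at 18 months by 1.01 (hypothalamus) to 1.69 (heart), and the young and aged ranges did not overlap in any of the 6 tissues. As for Wdfy1, this describes a gene picked on that difference, beside 0.354% of all gene and tissue combinations. Lung held 14.0 to 19.4 CPM in young (median 17.0), 4.78 to 9.16 in aged (median 6.38) and 6.75 to 11.9 in old libraries (median 7.80). Adrenal held 9.50 to 13.8 (median 11.8), 2.18 to 5.21 (median 3.87) and 2.80 to 5.05 CPM (median 3.71). Kidney held 5.09 to 10.7 (median 7.85), 2.70 to 3.90 (median 3.02) and 2.40 to 5.96 CPM (median 3.22). The later change was 0.31 ± 0.10 in lung and -0.32 ± 0.12 in muscle.

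Tmem181b-ps, adjacent to Dynlt1b, was lower by 1.08 (hypothalamus) to 1.75 (muscle). Adrenal held 29.4 to 48.4 CPM in young (median 38.4), 8.17 to 15.9 in aged (median 12.9) and 7.60 to 16.6 in old libraries (median 13.4), with a later change of 0.01 ± 0.08. Lung went from 23.4 to 48.2 (median 33.8) to 9.34 to 21.4 (median 14.2) and on to 4.61 to 11.9 CPM (median 6.41), a later change of -0.99 ± 0.15. Hypothalamus continued downward as well, by -0.77 ± 0.19, while heart and kidney turned upward by 0.41 ± 0.11 and 0.27 ± 0.09. The later changes of this pseudogene thus had both signs, and in lung that of its neighbour Dynlt1b had the opposite sign.

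Dynlt1-ps1, the processed pseudogene on chromosome 6, was lower at 18 months in all 6 tissues, with changes of -0.89 (adrenal) to -0.52 (lung). Its median over tissues, -0.72, and that of Efcab7, -0.70, were the smallest in size among the 10 members. Adrenal held 12.9 to 16.2 CPM in young (median 14.5), 5.77 to 10.1 in aged (median 7.18) and 6.27 to 9.97 in old libraries (median 7.57). In lung the values were 22.1 to 35.1 (median 26.5), 14.5 to 24.8 (median 18.8) and 13.1 to 38.5 CPM (median 31.0). Old lungs covered the whole young range, and the later change of 0.58 ± 0.12 left 0.06 ± 0.12 between old and young. Later changes were also upward in hypothalamus (0.41 ± 0.14), kidney (0.39 ± 0.08) and muscle (0.35 ± 0.09). In adrenal and heart they were -0.01 ± 0.07 and -0.18 ± 0.08.

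**Figure D3:**
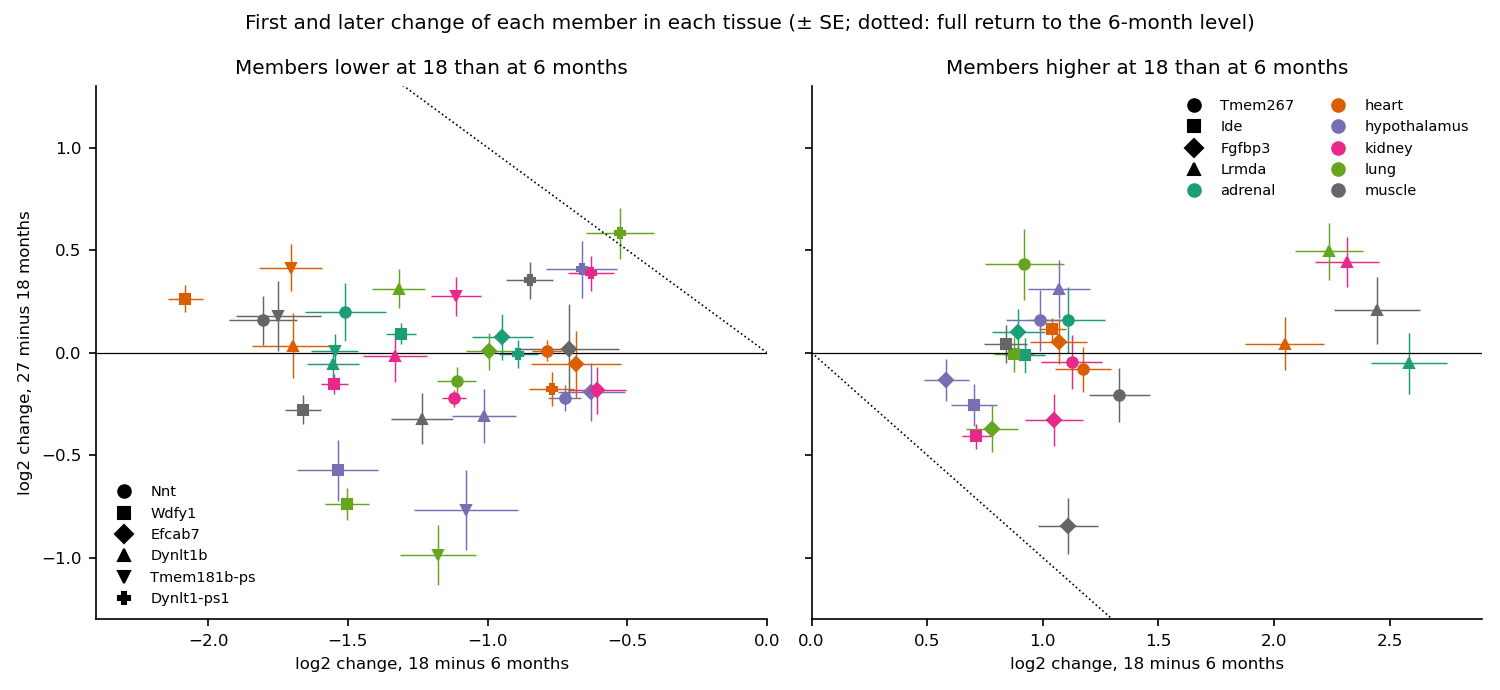
The change from 18 to 27 months (vertical axis) against the change from 6 to 18 months (horizontal axis), both log2 ± SE, for each member (symbol) and tissue (colour). Points near the horizontal line kept their 18-month level, and Dynlt1-ps1 in lung and Fgfbp3 in muscle lie near the dotted line of full return, at later changes of 0.58 and -0.84.

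The 7 cases in which the later change exceeded 0.5 times the first were thus few in kind. They were Ide in kidney (ratio of sizes 0.574), Fgfbp3 in muscle (0.76), Tmem181b-ps in hypothalamus (0.713) and lung (0.841), and Dynlt1-ps1 in hypothalamus (0.611), kidney (0.615) and lung (1.11). Tmem181b-ps moved further from the young level in both of its cases, and the other 5 moved back toward it. None of the 7 was in adrenal or heart. As a description, no member passed the threshold between 18 and 27 months in adrenal, where 2.49% of all genes did, and 2 members did in heart (20.3% of all genes). The counts were 7 in kidney (52.6%), 7 in lung (49.0%), 5 in hypothalamus (43.5%) and 4 in muscle (33.8%). Those 4 tissues are the ones with shallow old libraries. With the libraries of each tissue and time thinned to the smallest total among the 3 ages, the counts were 7 in kidney, 6 in lung, 5 in hypothalamus and 3 in muscle. The shares of all genes at equal depth are not given here, so nothing is read from these counts. Whether depth bears on them was not tested.

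Of 12974 genes tested in all 6 tissues, 14 were past the threshold between 18 and 6 months with the same sign in all 6 (0.108%), 9 lower and 5 higher. They are the 10 members and 4 genes outside them. Gm15446 (chr5:109923400-109943936, protein coding) was higher at 18 months by a median of 6.43 over tissues, with a later median change of -0.03. Gm28438 (chr1:24612775-24613119, an unprocessed pseudogene) was lower by a median of 2.59, and Gm43305 (chr14:54292443-54297456, a processed transcript) by a median of 1.31. Gm49980, lower by a median of 2.42, has no place in the annotation used. None of the 3 genes with coordinates lies at a locus of the members. In Gm28438 the median later change was -1.31, so its decline went on after 18 months.

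Genes between and beside the members were examined for how far along the chromosome the differences extended. These genes were not used to pick the members, and their adjusted p-values are from edgeR's quasi-likelihood test over all genes of a tissue. Among 78 genes flanking the 7 loci, 48 were tested in at least 1 tissue, and 30 of 230 gene and tissue tests were past the threshold. They include calls of 3110070M22Rik, Rpl10-ps6 and Tmem181c-ps, whose reads may not be separable from those of members. The counts and the shares by tissue may therefore partly restate the members' own differences. By tissue the share was 30.8% in kidney (23.4% of all genes), 12.5% in heart (19.8%), 11.8% in muscle (4.73%), 9.76% in adrenal (3.56%), 7.50% in lung (4.61%) and 6.82% in hypothalamus (1.05%). Flanking genes past the threshold in 4 or more tissues in 1 direction occurred at 2 loci, on chromosomes 13 and 19. The share of all genes that did so is not given here, so this is a description of these loci only.

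On chromosome 13, the 2 protein-coding genes between Nnt and Tmem267 passed the threshold in 1 of 12 tests. Paip1, which encodes a partner of the poly(A)-binding protein, was lower only in adrenal among the 6 tissues (-0.36 ± 0.07, adjusted p = 0.00341), and 4833420G17Rik passed in none. In kidney Paip1 was at 98.9 ± 5.52 CPM in young and 102 ± 9.84 in aged libraries (SD, n = 12). The noncoding gene 3110070M22Rik, which overlaps the start of Tmem267, was higher in all 5 tissues where it was tested, by 0.66 to 0.99. Its mean levels were low, from 0.510 to 1.46 CPM in young and aged groups of those tissues, and without known strand use its reads and those of Tmem267 cannot be told apart.

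Ccl28, a chemokine of mucosal surfaces and the next gene after Tmem267, changed in opposite directions. It was higher at 18 months in lung (2.35 ± 0.36, adjusted p = 8.33e-05), muscle (1.80 ± 0.25), adrenal (1.35 ± 0.26) and hypothalamus (1.27 ± 0.18), at mean levels of at most 3.65 CPM. In kidney, where it was abundant, it was lower, with 123 ± 28.6 CPM in young and 20.8 ± 3.98 in aged libraries (SD, n = 12), a change of -2.64 ± 0.17 (adjusted p = 1.61e-12). Old kidneys held 19.1 ± 8.78 CPM, with a later change of -0.21 ± 0.18. The opposite signs in kidney and in the other 4 tissues were not compared by a test.

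On chromosome 19, Btaf1 lies directly beside Fgfbp3 and encodes an ATPase that removes the TATA-binding protein from DNA. It was higher at 18 months in 5 of 6 tissues, by 0.30 ± 0.06 (kidney) to 0.86 ± 0.14 (muscle), and in hypothalamus by 0.56 ± 0.15 without passing (adjusted p = 0.0778). From 18 to 27 months Btaf1 fell past the threshold in kidney (-0.32 ± 0.06) and lung (-0.50 ± 0.09). It rose further in heart (0.19 ± 0.07) and muscle (0.39 ± 0.13), and did not pass in adrenal or hypothalamus. At 27 months it stood -0.02 ± 0.06 from young in kidney and -0.08 ± 0.09 in lung. In heart Btaf1 was at 19.9 ± 2.44 CPM in young and 29.0 ± 3.69 in aged libraries (SD, n = 12). Its median change from 6 to 18 months, 0.46, was smaller than that of Fgfbp3 (0.97) and Ide (0.86), and this difference between genes was not tested. The next genes toward Ide, Cpeb3 and Marchf5, were not higher past the threshold in any tissue. Cpeb3 was lower in kidney (-0.36 ± 0.06, adjusted p = 1.78e-05) and did not pass elsewhere, and Marchf5 passed in none of 6 tissues, with 98.7 ± 6.44 CPM in young and 98.9 ± 6.10 in aged kidneys. Tnks2, on the other side of Fgfbp3, passed in none. Rpl10-ps6, a ribosomal protein pseudogene that lies within the span of Ide (chr19:37295093-37295837), was higher in kidney (0.60 ± 0.19, adjusted p = 0.0192) and muscle (0.81 ± 0.22, adjusted p = 0.0261) and did not pass in the other 3 tissues where it was tested. Its mean was at most 0.983 CPM in young and aged groups, and without known strand use its reads and those of Ide cannot be told apart.

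**Figure D4:**
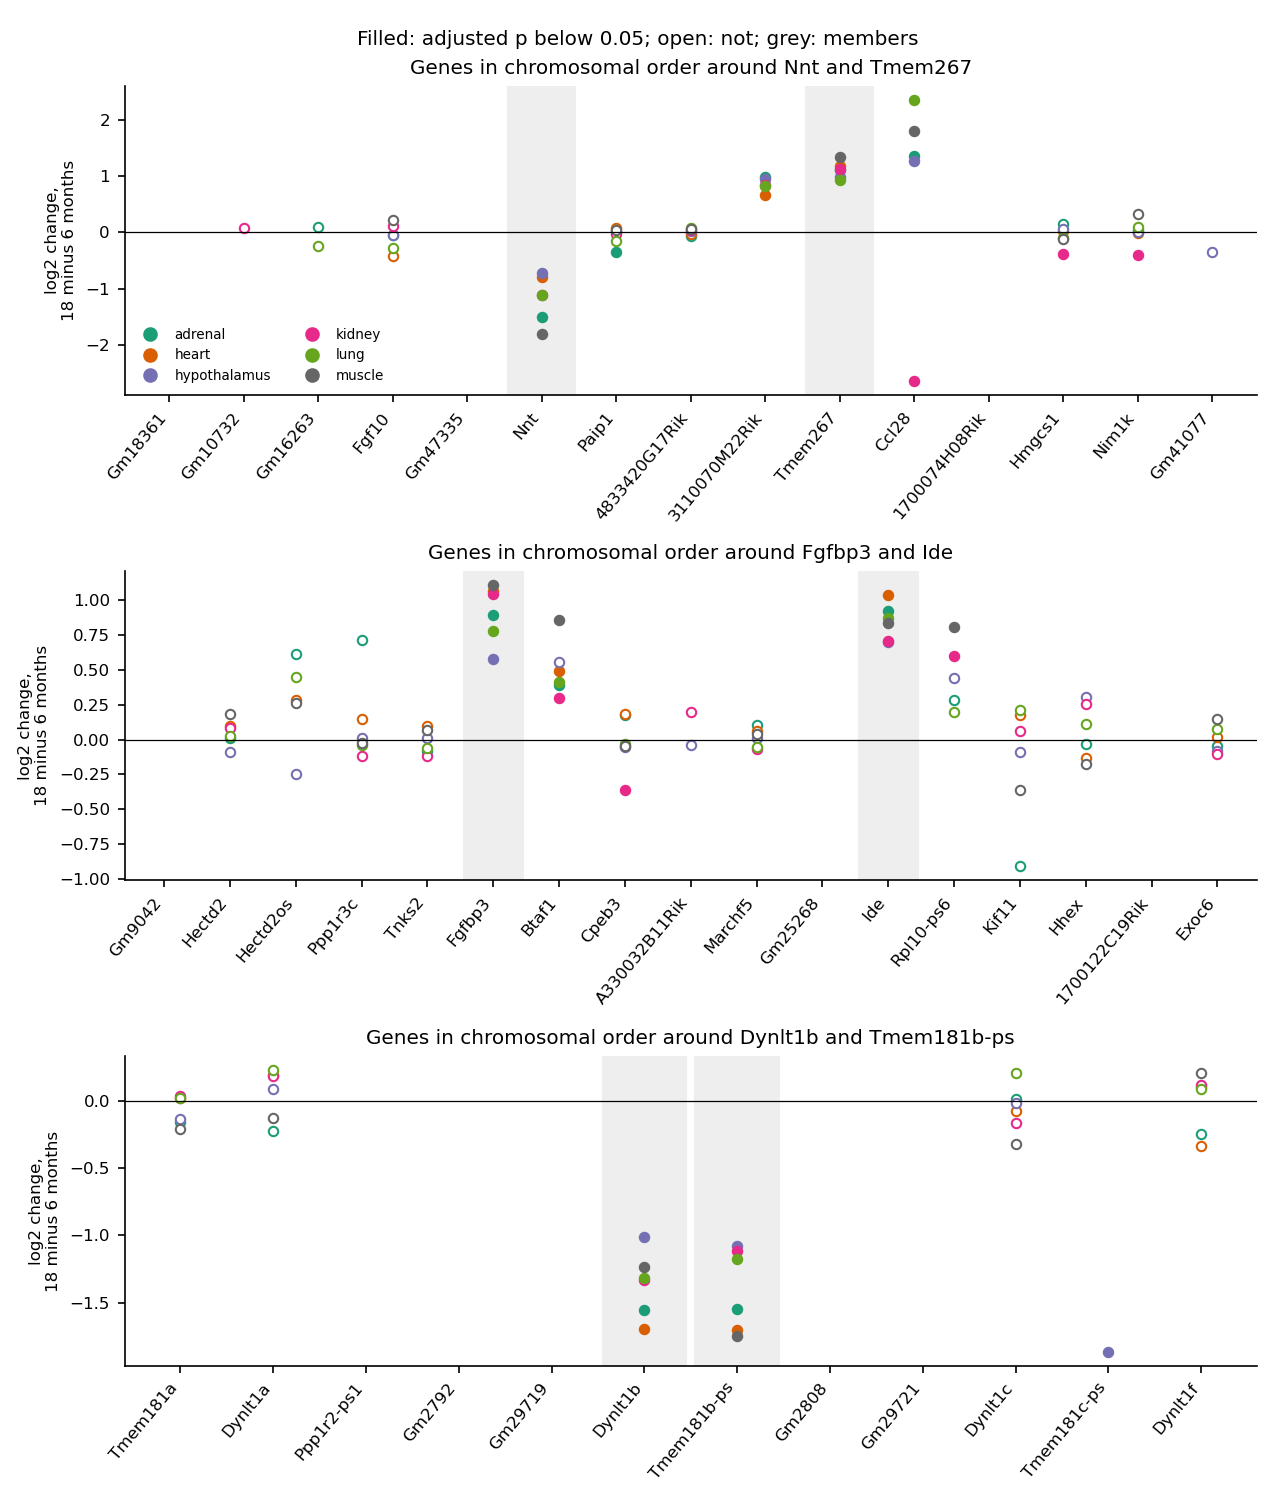
Log2 change from 6 to 18 months of the genes around 3 loci, in chromosomal order and not to scale, coloured by tissue. Filled points have an adjusted p below 0.05, open points do not, and grey bands mark the members. Of the genes between Nnt and Tmem267, Paip1 has 1 filled point (adrenal, -0.36) and 4833420G17Rik none. Between Btaf1 and Ide, Cpeb3 has 1 (kidney, -0.36) and Marchf5 none.

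At the other 5 loci, 9 of 120 gene and tissue tests of neighbours were past the threshold, a share no higher than the 9.17% of all combinations. The single calls are given as values and not as a result about these loci. Beside Wdfy1, Mrpl44, a mitochondrial ribosomal protein gene whose end overlaps that of Wdfy1, was lower in heart (-0.19 ± 0.05) and kidney (-0.20 ± 0.04), small beside the 2.08 and 1.55 of Wdfy1. Serpine2, the gene after Mrpl44, was higher in heart (0.19 ± 0.06) and kidney (0.84 ± 0.11), and Ap1s3, on the other side, was lower in kidney (-0.19 ± 0.07, adjusted p = 0.0499). Itgb3bp, next to Efcab7, passed in none of 6 tissues, and Pgm1, beyond Efcab7, was lower in kidney (-0.25 ± 0.04). Serpine2 and Pgm1 are named after their values were seen. Zfp503, next to Lrmda, was lower in muscle (-0.33 ± 0.09), and Emp1, next to Dynlt1-ps1, was higher in kidney (0.28 ± 0.08). No flanking gene of these loci passed in 4 or more tissues.

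The near-identical relatives of Dynlt1b and Tmem181b-ps, in the same cluster on chromosome 17, were tested because their reads could be assigned to the members. Dynlt1a, Dynlt1c, Dynlt1f and Tmem181a passed the threshold in none of 6 tissues, and their log2 changes lay between -0.33 and 0.23. In lung, Dynlt1f was at 17.6 CPM in young and 19.1 in aged libraries, and Dynlt1c at 7.76 and 9.09, beside 16.8 and 6.85 for Dynlt1b. Tmem181a in lung was at 35.7 and 36.7 CPM. Tmem181c-ps was tested in hypothalamus only and was lower there (-1.86 ± 0.28, adjusted p = 7.59e-05), from 0.954 to 0.274 CPM. Its mean was also lower in aged than in young libraries in the other 5 tissues, at levels under 0.4 CPM that were not tested.

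Circadian time was not used to pick the members, so their daily rhythms could be tested. With the 3 ages averaged, 3 of 60 member and tissue combinations had a 24 h rhythm, beside 11.7% of all combinations, and all 3 were in heart (27.7% of heart genes). They were Nnt (adjusted p = 0.0178, log2 amplitude 0.11), Ide (adjusted p = 0.0203, amplitude 0.13) and Dynlt1-ps1 (adjusted p = 0.0494, amplitude 0.16). In young mice 4 of 60 passed (3.55% of all combinations), all in heart (11.1% of heart genes): Nnt with an amplitude of 0.20, Ide with 0.22, Dynlt1b with 0.41 and Tmem267 with 0.51. In aged mice edgeR called 0 of 60 (2.34% of all combinations), with 1 at an unadjusted p under 0.05, and in old mice 0 of 60 (2.49%), with 5. The amplitudes of Nnt and Ide were small beside their differences between ages in heart (0.79 and 1.04).

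Rhythms were not shown to differ between ages. The rhythm of aged and young mice differed past the threshold for 0 of 60 combinations in edgeR (0.0% of all combinations), and 3 had an unadjusted p under 0.05, all in heart. Without the filter on low counts, Tmem267 in heart passed (adjusted p = 0.000865). The lowest adjusted p among the members with the filter was 0.653.

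A second independent question was whether libraries of different tissues with the same age and time deviate together. For each age, time was tested as a factor beyond a tissue's own mean and 24 h cosine over the 72 libraries. In aged mice Ide (adjusted p = 0.000192), Tmem267 (0.00751) and Fgfbp3 (0.00828) passed, beside 2.75% of all genes. In young mice Tmem267 passed (0.00264, 3.88% of genes), and in old mice Tmem267 again (0.00422, 1.01%). The other 7 members passed at no age. These shares refer to the variance left after tissue means and each tissue's 24 h cosine were removed. Of it, 66.4% lay between times in aged Ide and 50.7% in aged Fgfbp3, where the median gene had 17.5%. A tissue has a single library per age and time, so circadian time and the mice pooled at that time cannot be told apart. This holds for every shared deviation given here.

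For Ide and Fgfbp3 in aged mice, the shared deviation lay at 62 h. All 6 tissues at that time were below their aged mean, by 0.49 on average for Ide (0.28 to 0.69) and 0.67 for Fgfbp3 (0.44 to 1.03). Fgfbp3 at 62 h was the lowest of 12 aged libraries in 6 of 6 tissues, and Ide in 5, being the next to lowest in muscle. The Ide values there were 289 CPM in muscle, 166 in adrenal, 157 in kidney, 151 in heart, 96.0 in lung and 60.1 in hypothalamus. They lay between the young median and the aged median in every tissue. Without them, young and aged Ide overlapped in 0 tissues in place of 1, and young and aged Fgfbp3 in 1 tissue in place of 5. These libraries were singled out after the values were seen. Leaving out low values of the higher group can only lessen overlap, so nothing is read from these overlaps. The shared test of the aged then passed for neither, with adjusted p of 0.607 for Ide and 0.912 for Fgfbp3, so both calls rest on the libraries at 62 h.

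Btaf1, which lies between Fgfbp3 and Ide, was lowest at 62 h in 1 of 6 aged tissues and among the lowest 2 in 3. In each tissue its value at 62 h lay below the median of the other aged libraries. The gap was wide in hypothalamus (30.7 against 48.5 CPM) and narrow in heart (27.0 against 29.5). Btaf1 did not pass the shared test in the aged (adjusted p = 0.298). Of 14 flanking genes named here, none passed in aged or old mice, and 3110070M22Rik passed in young mice (adjusted p = 0.0254). Nnt and Wdfy1 did not pass in aged mice, with adjusted p of 0.867 and 0.741.

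Tmem267 deviated together across tissues at every age, but at different times. In young mice it was high at 62 h, by 0.68 on average with 5 of 6 tissues above their mean, and low at 54 h, by 0.61 with 6 of 6 below. In aged mice it was high at 42 and 46 h, by 0.33 and 0.31 with 6 of 6 above at both, and low at 38, 50 and 58 h, by 0.34, 0.30 and 0.36. In old mice it was high at 34 h, by 0.34 with 6 of 6 above, and low from 38 to 46 h, by 0.35 to 0.40. The times of high and low values were not the same in the 3 ages, and no test compared them. Each of the 3 calls was lost under 1 alternative: the young without hypothalamus (adjusted p = 0.101), the aged with a 12 h term also removed (0.0696) and the old without adrenal (0.115).

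**Figure D5:**
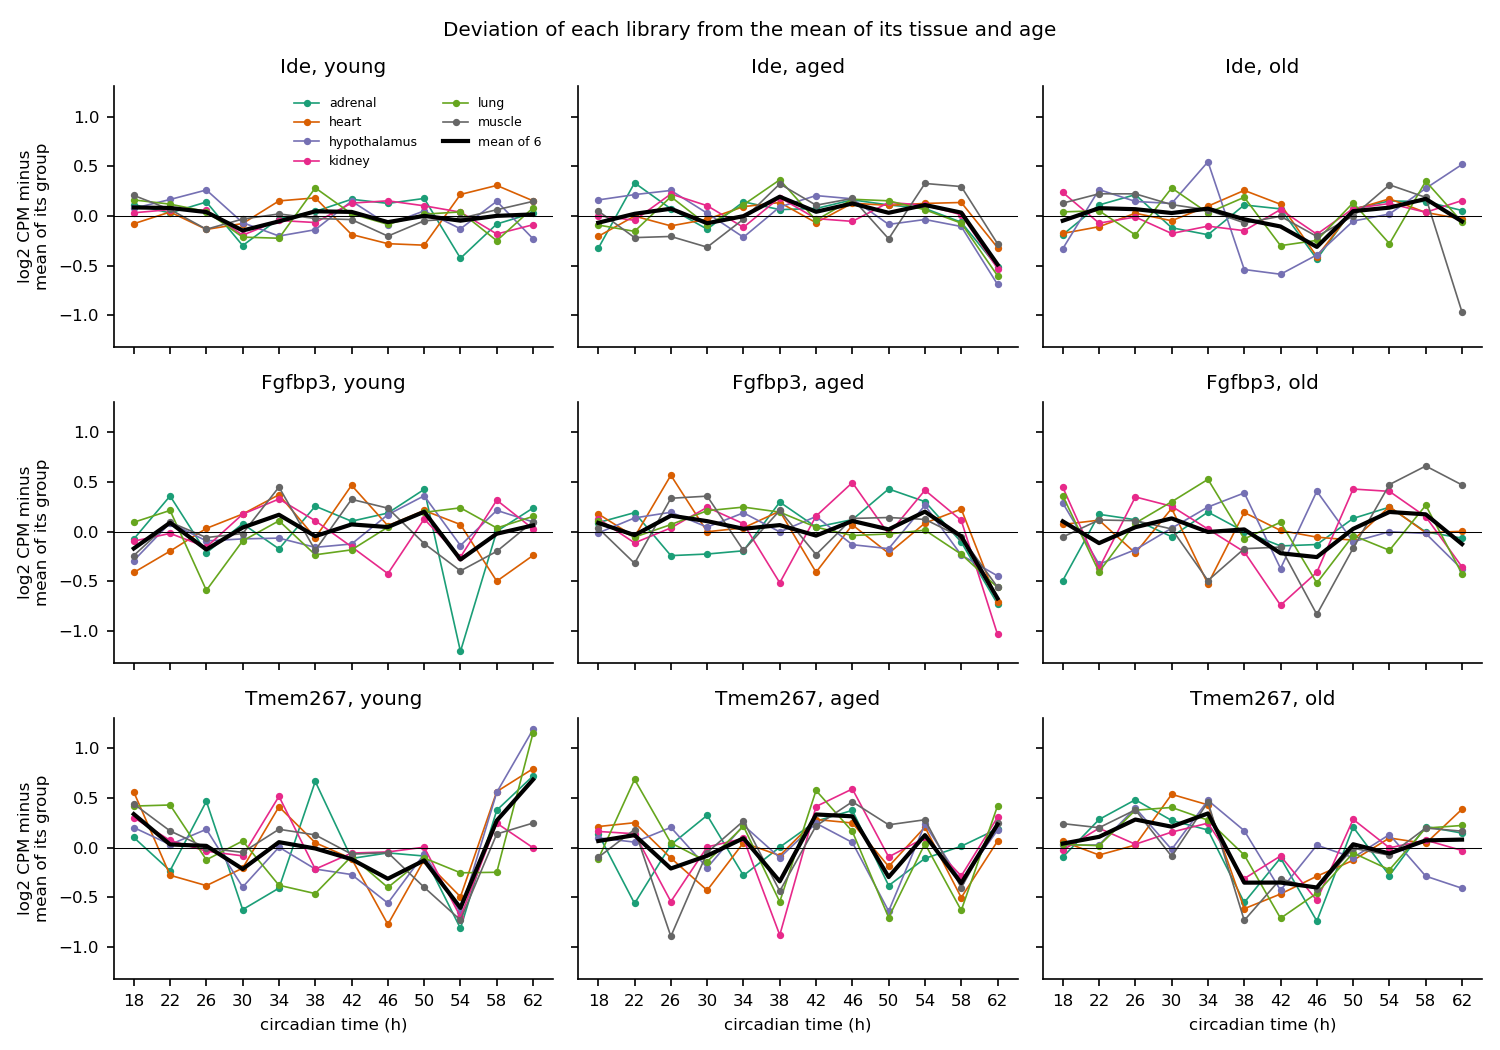
Deviation of each library from the mean of its tissue and age (log2 CPM), by circadian time in hours, for Ide, Fgfbp3 and Tmem267 (rows) in young, aged and old mice (columns). Coloured lines are tissues and the black line is their mean. At 62 h all 6 aged tissues lie below 0 for Ide and Fgfbp3, with means of -0.49 and -0.67.

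The order of tissues was not used by the rule either. Among the 72 young libraries, 119 of 150 member and tissue-pair comparisons passed, beside 83.3% of all genes' pairs. Nnt was highest in heart (1024 ± 144 CPM, SD, n = 12), followed by kidney (332 ± 9.52) and muscle (215 ± 45.9), then adrenal (182 ± 48.4), lung (57 ± 3.93) and hypothalamus (42.5 ± 2.63). On the scale fitted with TMM factors this order held, and kidney and muscle, which differed by 0.13 ± 0.09, were the 1 neighbouring pair that did not pass (adjusted p = 0.170). Ide was highest in muscle, 1.11 ± 0.06 above kidney, followed by heart and adrenal, which did not differ past the threshold on the fitted scale (adjusted p = 0.675) though their mean CPM were 89.7 ± 12.5 and 130 ± 15.7, then lung and hypothalamus. Wdfy1 was highest in kidney and lowest in heart and muscle, which did not differ past the threshold (adjusted p = 0.188).

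For the others, Tmem267 was highest in muscle and lowest in lung, with heart and hypothalamus not distinguished. Fgfbp3 was highest in hypothalamus, and Tmem181b-ps also, 1.64 ± 0.12 above heart. Efcab7 and Dynlt1-ps1 were highest in lung. Dynlt1b was highest in muscle and lung on the fitted scale, where they did not differ past the threshold (adjusted p = 0.295). By mean CPM lung (16.8 ± 1.79) and adrenal (11.8 ± 1.12) stood above muscle (9.71 ± 1.65). Lrmda had no neighbouring pair in its order that passed. The full order by fitted level equalled that by mean CPM for 2 of 10 members, Nnt and Tmem267, and that with RLE factors for 7.

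Across all libraries, each centred on its tissue's mean, the genes whose level went most closely with Nnt were sought among 11739 genes. The libraries share the 3 age groups, so these correlations mainly restate the differences between ages. Among members, Wdfy1 (Pearson r = 0.855), Dynlt1b (0.800) and Tmem181b-ps (0.790) had the highest values, and Lrmda (-0.862), Tmem267 (-0.714) and Ide (-0.670) the lowest. Outside the members the highest were Gm49980 (0.826), Gm28438 (0.767), Gm43305 (0.750), Rab4a (0.661) and Cd59a (0.643), and the lowest Gm15446 (-0.858), Ighm (-0.649), Ccl8 (-0.643), Rhpn2 (-0.632) and Igkc (-0.595). For Ide the highest were Gm15446 (0.849), Btaf1 (0.702), Ric3 (0.615), Mid1 (0.614) and Prkcz (0.543), and the lowest Gm49980 (-0.779), Rab4a (-0.691), Gm28438 (-0.686), Gm43305 (-0.591) and Cd59a (-0.580).

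Genes of the members' pathways were read beside the 9.17% of all combinations past the threshold between 18 and 6 months. By tissue that share was 23.4% in kidney, 19.8% in heart, 4.73% in muscle, 4.61% in lung, 3.56% in adrenal and 1.05% in hypothalamus. Most calls named below were in heart or kidney, where many genes of any kind passed. Of 114 tests of genes for mitochondrial NADPH and peroxide handling (19 genes), 6 were higher and 6 lower at 18 months, and the list's median change per tissue lay between -0.05 and 0.08. All genes had medians between -0.01 and 0.01. Me2, a mitochondrial malic enzyme, was higher in heart (0.23 ± 0.07) and kidney (0.24 ± 0.07). Mthfd2, a folate enzyme of the matrix, was higher in heart (0.41 ± 0.10), and Aldh1l2, the mitochondrial 10-formyltetrahydrofolate dehydrogenase, was lower in muscle (-0.49 ± 0.14). Idh2, a matrix source of NADPH, passed in none of 6 tissues.

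For metallopeptidases of insulin and amyloid peptides and receptors of the insulin family, 5 of 70 tests were higher and 3 lower. Mmel1, a neprilysin-like peptidase, was higher in adrenal (2.72 ± 0.53), where its mean went from 0.404 to 1.72 CPM, and Ace, angiotensin-converting enzyme, was lower in kidney (-0.60 ± 0.09). Igf2r was higher in heart (0.23 ± 0.07) and lower in kidney (-0.41 ± 0.08), and Insr, the insulin receptor, was higher in heart (0.21 ± 0.06). Of 57 tests in the fibroblast growth factor system 6 were higher and 5 lower. The ligand Fgf2 was higher in heart (0.23 ± 0.07) and kidney (0.73 ± 0.14), the ligand Fgf9 lower in adrenal (-0.50 ± 0.14) and heart (-0.26 ± 0.07), and the receptor Fgfr4 lower in kidney (-0.23 ± 0.06) and muscle (-0.77 ± 0.15).

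Of 65 tests of FYVE proteins and Toll-like receptor partners, 5 were higher and 2 lower. Wdfy4 was higher in kidney (0.96 ± 0.18), the adaptor Ticam2 in heart (0.54 ± 0.19), and the receptors Tlr4 in heart (0.42 ± 0.11) and Tlr3 in kidney (0.30 ± 0.09). For the Hedgehog pathway and its ciliary tether, 3 of 60 tests were higher and 4 lower. The transducer Smo was lower in kidney (-0.20 ± 0.05). Evc, which EFCAB7 anchors with EVC2, was higher in heart (0.20 ± 0.06) and lower in kidney (-0.18 ± 0.06), and Evc2 was higher in heart (0.29 ± 0.06).

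For dynein chains and dynactin, 0 of 64 tests were higher and 4 lower, with Dynlrb1 lower in adrenal (-0.24 ± 0.05) and heart (-0.24 ± 0.06), and Dynll2 (-0.15 ± 0.05) and Dync1li1 (-0.22 ± 0.04) lower in kidney. Of 25 tests of melanosome genes 1 was higher and 1 lower, Dct in heart (1.48 ± 0.15) and Rab38 in lung (-0.38 ± 0.10). No gene of these 7 lists passed in more than 2 tissues in 1 direction. Mmel1, Fgf9 and Dynlrb1 were the 3 adrenal calls of the lists. Without the 7 adrenal libraries that stood apart, the lists had 1 adrenal call.

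Among genes with known sequence differences between C57BL/6 substrains, Crb1, a cell polarity gene of the retina, was higher at 18 months in all 4 tissues where it was tested, from 0.75 ± 0.19 in lung to 1.43 ± 0.12 in hypothalamus (adjusted p = 4.33e-09), where the mean went from 2.79 to 7.54 CPM. Cyfip2 was higher in heart (0.25 ± 0.08) and lung (0.48 ± 0.13) and not past the threshold in 4 tissues. Dock2 was higher in kidney (0.86 ± 0.21), and Mmrn1 in lung (0.46 ± 0.13). Nlrp12 was tested in adrenal and lung and passed in neither. Genotypes at these genes were not analysed here, and whether they bear on the members was not tested.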

How the data were processed

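The submitters sequenced poly(A) RNA from libraries of 6 tissues and 3 ages, and gene counts and CPM were deposited by the authors. HISAT2, HTSeq, GRCm38 and mm10 are named in the submitters' processing notes, and the sources used here give no versions, roles or strand setting. The deposited CPM equal each count over its library's total count within 4.98e-06, and 11744 of 55376 names had no count in any library. For 2 names that occur on 4 lines the counts are uncertain. Library totals of 1.83 M to 34.5 M counts set the precision.

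Groups came from the labels. Counts were fitted per tissue (36 libraries) in edgeR 4.0.16 (R 4.3.3) by quasi-likelihood with TMM factors, age means and 24 h terms for each age, after a filter at a minimum count of 10, with Benjamini-Hochberg adjustment and a threshold of 0.05. Shared time deviation was fitted over the 72 libraries of an age, as a 9-degree-of-freedom test of circadian time beyond tissue means and tissue-specific 24 h terms, and young tissue levels over 15 tissue pairs. Likeness used log2 CPM with a prior count of 2. Tables were made in Python 3.11.15.

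The members and gene lists were chosen with earlier results of these data known. Named beside the members were flanking genes past the threshold in 4 or more tissues in 1 direction and immediate neighbours, up to 3 genes of each pathway list by number of tissues past the threshold with those needed for its role, all near-identical copies and substrain genes, and the 5 genes most and least like Nnt and Ide. Some genes of these lists are not reported here. The procedure was tested on simulated counts: in kidney (16521 genes), 100 of 100 genes changed by 1 on the log2 scale were called and 91 of 100 changed by 0.5, with 7 false calls. For shared deviation, 162 of 200 were called with 4 false calls among 6000 genes. The simulated counts had the same relative spread for every gene, no rhythm and no libraries that stood apart. These rates therefore need not hold for the real counts. Alternatives were RLE factors, no filter, DESeq2 1.42.0, circadian time as a block, equal depth and left-out libraries.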

Additional observations from a re-analysis of the deposited data

How the results depend on the processing

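Of 618 recomputed differences between ages of single members, 617 moved by less than their spread and 0 reversed, the exception being Efcab7 in kidney at equal depth (-0.37 against -0.61). Of 283 recomputed counts of calls, 244 stayed within 1.5 times. The cause of the other 39 was not tested. All genes called between 18 and 6 months numbered 1731 in adrenal with DESeq2 and 355 without 7 libraries (640 as reported), 302 in hypothalamus with DESeq2 and 80 at equal depth (197), 490 in lung at equal depth (846), and in muscle 1346 without filter, 1082 with DESeq2 and 445 at equal depth (688). Between 27 and 18 months adrenal had 195 without filter, 1157 with DESeq2 and 0 without 7 libraries (448). Pathway list calls were 5 in adrenal with DESeq2 and 1 without 7 libraries (3), 1 in hypothalamus at equal depth (2), 2 in lung at equal depth (5), and 7 in muscle without filter and 2 at equal depth (4). Flanking calls were 9 in heart without filter (4), 1 in hypothalamus at equal depth (3) and 2 in muscle at equal depth (4). Rhythm calls were 106 in adrenal without filter and 843 without 7 libraries (198), where 1 member passed, Efcab7 (0 as reported), 229 in hypothalamus (402) and 1984 in muscle (1210) without filter. Rhythm differences without filter numbered 366 in heart, with 1 member, 2 in kidney and 384 in muscle (0 in each). Shared deviations with 24 h and 12 h terms removed numbered 422 in young (802), 330 in aged (571) and 68 in old (197), and without adrenal 103 in old, with 0 members (1). Without 1 circadian time, chosen after seeing the data, 1 member passed in aged (3). Without hypothalamus, Tmem181b-ps passed in young (adjusted p = 0.00294).

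Circadian time as a replicate block is not a pairing: among pairs of libraries with 1 time and tissue, 60 had a correlation over 0.1 (range -0.57 to 0.67), 0 of 18 combinations had all pairs above it, and 15 libraries correlated best with their own time. With the block, calls in muscle numbered 434 for all genes (688), 2 for flanking genes (4) and 2 for pathway lists (4), and old against aged adrenal 794 (448), and it moved no other count by over 1.5 times. Shallow old libraries, down to 1.83 M counts, limit the later changes of low genes such as Efcab7, with 1 count in 1 old muscle library.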
